A study of Rattus norvegicus with 36 samples.

Results

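Trim AGU was compared with canonical miR-125b in hypoxic H9C2 cells, a myoblast line from rat heart. The 6 libraries of these 2 groups, 3 of each, were chosen by their labels from the 36 libraries and 12 groups of the series. Cells were transfected with 25 nmol/L of a synthetic microRNA (a mimic) and a day later were kept in hypoxia for a day, in low-glucose medium without serum. Poly-A RNA was then sequenced without strand information. Trim AGU is named Trim 3 in the sample labels. Both groups received a mimic, so neither is an untreated control. The normoxia groups used below, 3 libraries of miR-125b and 3 of Trim AGU, received the same mimics but fresh standard medium, so that oxygen and medium cannot be told apart. All groups are from 1 cell line, and no label says whether replicates are separate cultures, so the p-values measure the spread between these libraries, which may be technical.

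A microRNA guides an Argonaute protein to messenger RNAs, mainly by pairing of its seed, the bases near its 5′ end, and the bound messenger is degraded or translated less. miR-125b is known for repressing the pro-apoptotic gene *Bak1* and regulators of growth and differentiation in muscle. An isomiR is a variant of a mature microRNA with bases added or lost at an end, and loss at the 3′ end leaves the seed as it was.

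The mature rat sequence was taken from RefSeq (GRCr8, chr11:29732588-29732609, plus strand), and the isomiRs were derived from it by taking off the bases in their names from the 3′ end. They are shown because the 2 mimics compared differ only in their last bases. Capitals mark the seed, bases 2 to 8, which is CCCUGAG in each.
miR-125b: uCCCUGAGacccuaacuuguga
Trim AG: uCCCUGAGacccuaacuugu
Trim AGU: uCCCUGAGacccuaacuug
miR-125b has 22 bases, Trim AG 20 and Trim AGU 19.

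The 6 libraries held 29091175 to 34048139 counts. Trim AGU replicate 2 stood apart. It had a count for 16981 genes, where the other 5 libraries had 18455 to 19098, and 5.70% of its counts were on the mitochondrial chromosome, against 3.29% to 4.45%. Its log2 CPM (a count per 1e6 counts of the library) differed from the other Trim AGU libraries by a root mean square of 0.919 to 0.983, and those 2 differed from each other by 0.513. Libraries of miR-125b differed among themselves by 0.376 to 0.383. The difference of replicate 2 from miR-125b followed gene length, with a median of 0.46 in the shortest of 5 equal groups of genes by length and -0.48 in the longest. Replicate 3 had 0.21 and -0.13, and replicate 1 had 0.04 and 0.03. Trim AG replicate 2 in hypoxia also had the highest mitochondrial share of its group, 5.29%. Of the normoxia libraries, replicate 1 of miR-125b stood apart in single genes, such as *Cav1* (chosen after its values were seen), at 106, 295 and 273 CPM in replicates 1 to 3. Results are therefore given with and without these 2 libraries for many genes and lists, but not for all.

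**Figure D1:**
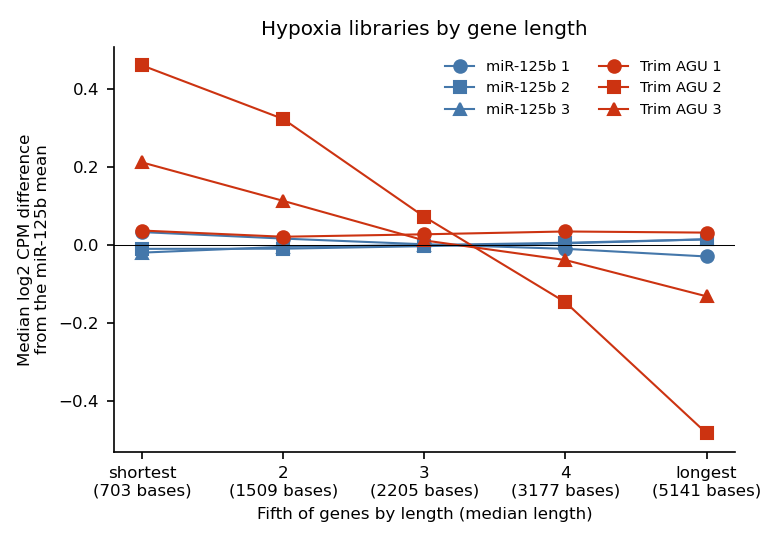
Median difference in log2 CPM from the mean of the 3 miR-125b libraries (y axis) in 5 groups of the 15051 genes tested, by gene length (x axis, with the median length in bases), 1 line per hypoxia library. Trim AGU 2 falls from 0.46 in the shortest genes to -0.48 in the longest, Trim AGU 3 from 0.21 to -0.13, and the others stay near 0.

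The cells were checked against markers. The myoblast markers *Vim* (vimentin, 3083 CPM in miR-125b and 4177 in Trim AGU, group means), *Cdh15* (348 and 229) and *Myod1* (40.5 and 21.1) were present in both groups. *Des*, another muscle marker, was at only 1.55 and 1.52 CPM, and the 8 markers of heart muscle cells summed to 15.2 to 19.2 CPM over the 6 libraries, most of it *Gata4* (12.6 and 11.9 CPM), with *Nppa*, *Nppb* and *Ryr2* below 0.2 CPM. The 3 matched endothelial markers summed to 0.063 to 0.469 CPM over the 6 libraries, with *Emcn* at 0. *Pecam1*, *Cdh5* and *Kdr* had no matching symbol and could not be checked. The 6 macrophage markers summed to 14.7 to 24.6 CPM, most of it *Cd14* (16.6 and 16.8 CPM), with *Cd68* at 1.13 and 1.34 CPM, *Adgre1* at 0 and the others below 0.6 CPM. Of these 3 lists, 5 heart muscle markers, 4 macrophage markers and 0 endothelial markers had enough counts to be tested. None of those tested was called. Among the epithelial markers *Krt8* alone exceeded 1 CPM, at 137 and 169 CPM.

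Of 15051 genes tested, 275 (1.83%) were higher and 290 (1.93%) lower in Trim AGU than in miR-125b, at a Benjamini-Hochberg adjusted p below 0.05 from edgeR's quasi-likelihood test and a fold change of at least 1.5. Genes that meet both limits are said below to have risen or fallen. Libraries of the 2 groups did not overlap for 5727 genes, or 38.1%. Without Trim AGU replicate 2, 506 of 15376 genes (3.29%) were higher and 795 (5.17%) lower, 8.46% in all. The counts fell to 17 to 25 higher and 10 to 13 lower without any 1 library of miR-125b, and to 60 and 29 without Trim AGU replicate 3. They were 788 and 689 without Trim AGU replicate 1. The genes that fell had a median length of 3275 bases, against 2237 for those that rose and 2205 for all genes tested. The part of the length trend in these calls was not tested gene by gene, and with the trend removed 395 rose and 362 fell. Called in every one of the 6 fits that each left out 1 library were 26 genes, 17 higher and 9 lower, of which 11 belong to the list of mitosis genes described next. Every other gene called with all 6 libraries lost its call in at least 1 of these fits.

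Genes of mitosis, which build and check the spindle that parts the chromosomes and then divide the cell, were higher in Trim AGU almost throughout. Of 29 listed genes tested, 28 rose and 1, *Anln*, did not pass, where 1.83% of all genes rose. The median log2 fold change of the list was 1.49, where all genes tested had a median of -0.02. *Ccnb1*, the cyclin that drives entry into mitosis, had 21.1, 22.6 and 19.96 CPM in the miR-125b libraries and 70.3, 81.6 and 78.9 CPM in the Trim AGU libraries. The groups were well apart, and the log2 fold change was 1.82 (SE 0.11, adjusted p = 0.00215 from edgeR). *Mki67*, the marker of dividing cells, rose from 43.3, 48.6 and 46.8 CPM to 149, 141 and 133 CPM, a log2 fold change of 1.57 (SE 0.10). Trim AGU replicate 2 lay between the other 2 here. *Top2a*, which untangles chromosomes, had 36.9, 37.3 and 36.6 CPM with miR-125b and 113, 101 and 108 CPM with Trim AGU, a log2 fold change of 1.503 (SE 0.10).

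The largest rises in the list were those of *Cdca3*, which helps degrade an inhibitor of mitotic entry, and *Cep55*, needed for the final cut between daughter cells. *Cdca3* had 7.60, 9.16 and 9.20 CPM with miR-125b and 36.6, 56.0 and 37.5 CPM with Trim AGU, a log2 fold change of 2.29 (SE 0.20). *Cep55* rose from 5.96, 5.78 and 5.24 CPM to 21.4, 25.0 and 25.7 CPM (log2 fold change 2.05, SE 0.14). *Nusap1* and *Prc1*, which bundle spindle microtubules, had log2 fold changes of 1.97 and 1.71. *Cdc20*, which activates the complex that ends mitosis, had 1.81, and *Kif20a* and *Cenpf*, a motor of cell division and a protein of the centromere, 1.32 and 1.49. *Anln*, an actin-binding scaffold of the cleavage furrow, had 104, 25.4 and 91.1 CPM in the Trim AGU libraries against 34.8, 37.0 and 41.2 CPM. Replicate 2 was low there and the other 2 high, and without it *Anln* rose by a log2 fold change of 1.35 and all 29 genes were called. Genes outside the list that the rule named among the largest rises included *Cdca2* (1.84), *Depdc1b* (1.88), *Ska1* (1.91) and *Cenpw* (1.82), the last 2 of which encode kinetochore proteins, and *Ube2t*, a DNA repair gene (1.86), all as log2 fold changes.

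**Figure D2:**
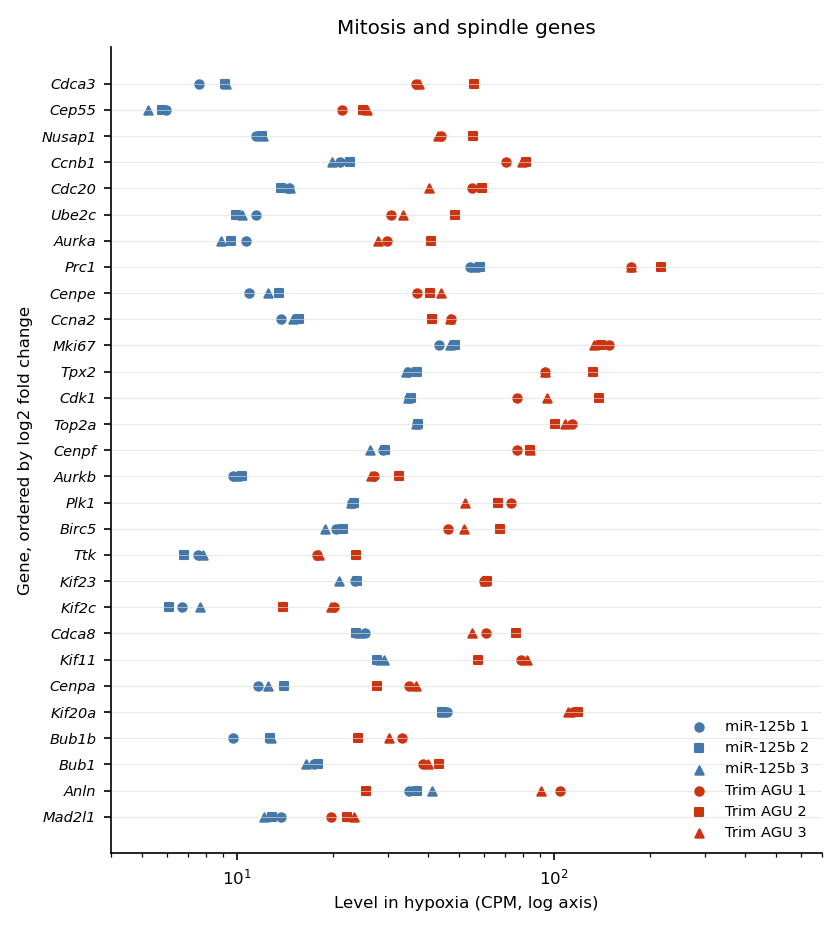
Level in CPM (x axis, log scale) of the 29 mitosis and spindle genes tested (y axis, ordered by log2 fold change) in the 3 miR-125b (blue) and 3 Trim AGU (red) hypoxia libraries, 1 mark per library. All genes but *Anln* have every red mark to the right of every blue mark.

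The number of mitosis genes called depended on the libraries more than their fold changes did. It was 11 to 12 without any 1 library of miR-125b, 19 without Trim AGU replicate 3 and 28 without replicate 1, while the median log2 fold change stayed between 1.48 and 1.55. With the replicate number as a block it was 18.

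DNA replication genes, which copy the genome before mitosis, were higher by less. Of 30 tested, 10 rose and 0 fell, where 1.83% and 1.93% of all genes did. The median log2 fold change was 0.72. *Mcm5*, a subunit of the replicative helicase, had 19.6, 17.9 and 20.7 CPM with miR-125b and 39.6, 43.03 and 37.95 CPM with Trim AGU (log2 fold change 1.01, SE 0.11, adjusted p = 0.00894 from edgeR). The groups did not overlap. Its partners *Mcm3* and *Mcm6* had log2 fold changes of 0.83 and 1.12. The number was 16 without Trim AGU replicate 2 or replicate 1, 1 without replicate 3 and 0 without any 1 library of miR-125b.

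Promoters of both lists were read from RefSeq (GRCr8, 250 bases before to 50 after the start, 1 per symbol), since members that move together may share letters there. The CHR motif of late cell cycle genes, TTTGAA or TTCGAA on either strand, stood in 18 of 26 promoters of the mitosis list (69.2%) and in 19.5% of all 27457 promoters. It stood in 6 of 25 promoters of the DNA replication list. CCAAT, on either strand, stood in 73.1% of the mitosis list, 68.0% of the DNA replication list, 56.0% of the integrated stress response list described below and 37.7% of all. Letters bound by E2F factors (TTTGGCGC, TTTCCCGC, TTTGCCGC or TTTCGCGC, either strand) stood in 15 of 25 promoters of the DNA replication list (60.0%) but in 3.85% of the mitosis list and 2.25% of all. A match describes the letters only, and no binding was measured. Shown are 3 mitosis promoters with both CHR and CCAAT and 1 replication promoter with an E2F match, each from 100 bases before to 50 after the start, with matches in capitals.
Cdc20, chr5:137255750-137255899, minus strand: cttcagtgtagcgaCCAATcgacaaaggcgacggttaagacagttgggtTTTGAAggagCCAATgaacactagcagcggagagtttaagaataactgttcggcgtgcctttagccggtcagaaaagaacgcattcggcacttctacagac
Prc1, chr1:143659381-143659530, plus strand: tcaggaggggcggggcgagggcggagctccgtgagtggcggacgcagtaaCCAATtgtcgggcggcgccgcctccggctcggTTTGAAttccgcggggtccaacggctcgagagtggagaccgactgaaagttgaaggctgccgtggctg
Nusap1, chr3:127057195-127057344, plus strand: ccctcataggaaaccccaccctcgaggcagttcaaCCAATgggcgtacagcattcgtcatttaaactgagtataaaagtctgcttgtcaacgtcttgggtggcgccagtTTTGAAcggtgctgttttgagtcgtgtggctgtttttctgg
Mcm5, chr19:13488713-13488862, plus strand: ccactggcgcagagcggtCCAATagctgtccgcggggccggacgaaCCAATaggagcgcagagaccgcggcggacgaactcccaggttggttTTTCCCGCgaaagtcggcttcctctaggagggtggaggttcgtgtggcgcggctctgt

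The largest rise by the rule for named genes was that of *Usp15* (chromosome 7, 66595742 to 66687278, plus strand, in the deposited annotation, whose build is not named), a deubiquitinase that removes ubiquitin from TGF-beta receptors and other proteins. It had 18.4, 18.3 and 18.5 CPM with miR-125b and 91.1, 118 and 111 CPM with Trim AGU. The miR-125b libraries were nearly equal, the groups did not overlap, and the log2 fold change was 2.50 (SE 0.12, adjusted p = 0.00215 from edgeR, at most 0.0417 in each fit that left out 1 library). Its paralogs *Usp4* and *Usp11* had log2 fold changes of -0.00 (SE 0.09) and -0.04 (SE 0.10). Reads shared between the paralogs were not tested. *Itgb1*, the beta-1 integrin through which cells hold on to matrix and chosen after its values were seen, had 749, 771 and 756 CPM with miR-125b and 1906, 1885 and 1934 CPM with Trim AGU (log2 fold change 1.29, SE 0.11).

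Among the genes that fell, *Plagl1* had the largest change by the rule for named genes (chromosome 1, 7252349 to 7259035, plus strand). This imprinted zinc finger gene, which restrains growth, had 30.4, 34.4 and 35.0 CPM with miR-125b and 3.93, 1.14 and 2.69 CPM with Trim AGU. The log2 fold change was -3.71 (SE 0.42, adjusted p = 0.00896 from edgeR) and -3.36 without Trim AGU replicate 2, where the level was lowest. It was not called without any 1 library of miR-125b or without Trim AGU replicate 3 (adjusted p up to 0.0674, edgeR). Of 12 imprinted network genes tested, *Plagl1* was the only one called with all libraries, where 3.75% of all genes were called. *Igf2* and *Grb10*, a growth factor and an adaptor that dampens insulin signalling, had log2 fold changes of -0.50 (SE 0.13) and -0.49 (SE 0.12).

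*Dag1*, which links the cytoskeleton of muscle to the matrix, had 255, 259 and 264 CPM with miR-125b and 82.3, 37.0 and 56.6 CPM with Trim AGU (log2 fold change -2.18, SE 0.28). *Sec14l1*, of a family of lipid-binding proteins, fell from 113, 117 and 121 CPM to 31.1, 19.2 and 27.6 CPM (log2 fold change -2.20, SE 0.19). *Sirt2*, an NAD-dependent deacetylase of tubulin, had 109, 111 and 113 CPM with miR-125b and 40.3, 44.3 and 36.1 CPM with Trim AGU (log2 fold change -1.503, SE 0.10). Trim AGU replicate 2 was the lowest library for *Dag1* and *Sec14l1* and the highest of its group for *Sirt2*, and the groups did not overlap in any of the 3. *Dag1* was not called without any 1 library of miR-125b or without Trim AGU replicate 3 (adjusted p up to 0.0839, edgeR), while the other 2 were called in every such fit.

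*Ddah1*, which breaks down an inhibitor of nitric oxide synthase, and *Myo1d*, an unconventional myosin, also fell in every fit that left out a library. *Ddah1* had 67.4, 71.3 and 65.2 CPM against 25.8, 24.2 and 22.1 CPM (log2 fold change -1.54), and *Myo1d* had 181, 185 and 177 CPM against 73.7, 64.2 and 66.3 CPM (-1.45). *Spata13*, an exchange factor for small GTPases, was the lowest of these in level, at 5.13, 5.41 and 4.71 CPM against 0.629, 0.734 and 0.718 CPM (-2.90). The other genes that the rule named as the largest falls had at most 6.96 CPM in any of the 6 libraries: *Epb4.1l1* (-3.58), *Bcas1* (-3.12), *Trpm5* (-2.84), AC103129.3 (-2.53), *Tmco3* (-2.41), *Apol9a* (-2.32), *Fgd3* (-2.22) and *Htra3* (-2.14). None of these 8 was called in every fit that left out a library.

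**Figure D3:**
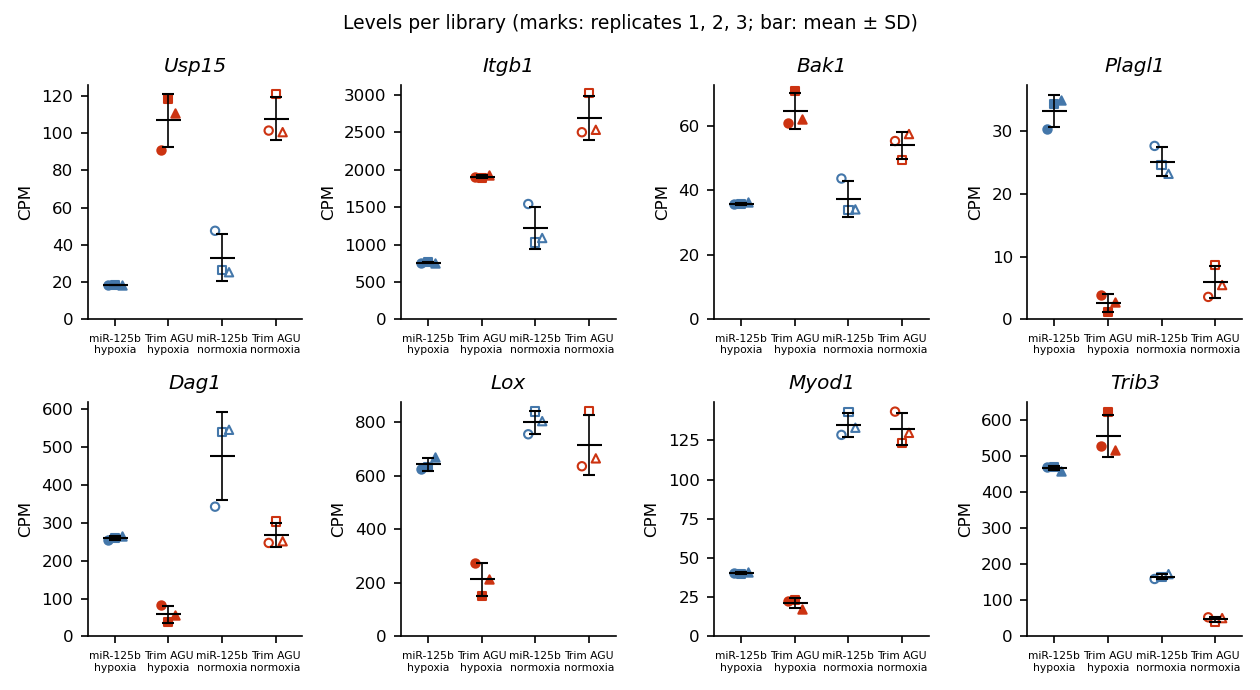
CPM (y axis, linear from 0) of 8 genes in the 3 libraries of miR-125b (blue) and Trim AGU (red) in hypoxia (filled) and normoxia (open), with mean and SD as bars. *Usp15*, *Itgb1*, *Plagl1* and *Dag1* were called in the same direction in both oxygen conditions, *Bak1*, *Lox* and *Myod1* in hypoxia, and *Trib3* in normoxia. In normoxia *Bak1* had a log2 fold change of 0.53 (adjusted p = 0.00925 from edgeR), below the fold limit only.

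Genes of the extracellular matrix were mostly lower, but few passed the test with all libraries. Of 34 tested, 31 had a negative log2 fold change (median -0.81), 25 did not overlap between the groups, where 38.1% of all genes did not, and 3 fell, where 1.93% of all genes did: *Lox*, *Eln* and *Ogn*. *Lox*, the enzyme that cross-links collagen and elastin, had 625, 632 and 671 CPM with miR-125b and 274, 151 and 214 CPM with Trim AGU (log2 fold change -1.63, SE 0.22, adjusted p = 0.0149 from edgeR). *Eln*, elastin itself, had 14.4, 12.7 and 11.99 CPM against 5.85, 2.13 and 2.48 CPM (-1.93), and *Ogn*, a small proteoglycan, 4.30, 5.69 and 4.49 CPM against 1.01, 1.17 and 1.26 CPM (-2.11).

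The collagens varied within Trim AGU. *Col1a1*, the main chain of fibrillar collagen, had 24952, 25352 and 26144 CPM with miR-125b but 18132, 11121 and 11108 CPM with Trim AGU (log2 fold change -0.96, SE 0.23, adjusted p = 0.0751 from edgeR). Replicate 1 was the highest and the other 2 nearly equal. Without Trim AGU replicate 2, 13 of the 34 genes fell, where 5.17% of all genes did, and the median was -0.53. Without replicate 1, 14 fell, with a median of -1.06. Without any 1 library of miR-125b none fell, and without Trim AGU replicate 3 it was 1. With the length trend removed 8 fell. The fibroblast markers *Col1a1* and *Col3a1* belong to this list, *Thy1* had 112 and 117 CPM in the means of both groups, and *Pdgfra* and *Dpt* were below 0.4 CPM. The summed level of the 5 matched fibroblast markers was 37936 to 40037 CPM with miR-125b and 15621 to 26552 CPM with Trim AGU. The part of a change in cell makeup was not tested, and fewer cells of a type and less RNA per cell cannot be told apart in bulk libraries.

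Muscle contraction genes were split. Of 30 tested, 6 rose and 2 fell, where 1.83% and 1.93% of all genes did, with a median log2 fold change of 0.04. *Acta1*, skeletal muscle actin, had 16.9, 18.8 and 19.1 CPM with miR-125b and 67.4, 80.3 and 54.3 CPM with Trim AGU (log2 fold change 1.84, SE 0.16, adjusted p = 0.00369 from edgeR). *Cnn1*, the smooth muscle calponin, rose from 136, 145 and 134 CPM to 288, 410 and 299 CPM (1.23). *Tnni1* (1.12), *Tnnc2* (1.00), *Mylpf* (0.87) and *Tpm1* (0.68), parts of the thin and thick filaments, also rose. *Mybpc1* (-1.82) and *Mybph* (-0.79), which encode myosin binding proteins, fell. Without Trim AGU replicate 2, 8 rose and 5 fell, where 3.29% and 5.17% of all genes did. Without Trim AGU replicate 1 it was 9 and 2. The counts were 0 to 1 and 0 without Trim AGU replicate 3 or any 1 library of miR-125b.

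*Tnnt2*, cardiac troponin T, had 40.5, 39.8 and 42.0 CPM with miR-125b and 32.6, 63.5 and 34.5 CPM with Trim AGU. Replicate 2 was above and the other 2 below every miR-125b library, so the log2 fold change was 0.05 (SE 0.25) with all libraries and -0.31 (adjusted p = 0.0233 from edgeR) without that one.

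Of 12 myogenic regulators tested, 2 fell and 0 rose, where 1.93% and 1.83% of all genes did. The genes that fell were *Myod1* and *Myog*, the transcription factors that commit and differentiate muscle cells. *Myod1* had 40.5, 40.0 and 41.1 CPM with miR-125b and 22.8, 23.2 and 17.4 CPM with Trim AGU (log2 fold change -0.98, SE 0.14, adjusted p = 0.0162 from edgeR). *Myog* had 62.7, 61.9 and 61.3 CPM against 42.2, 46.4 and 36.6 CPM (-0.61, SE 0.11). Neither overlapped between the groups, where 38.1% of all genes did not. Neither was called without any 1 library of miR-125b or without Trim AGU replicate 3. *Srf*, which drives actin genes, had a log2 fold change of 0.52 and did not pass. Without Trim AGU replicate 2 it rose, by 0.63 (adjusted p = 8.1e-04 from edgeR).

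Of 34 apoptosis regulators tested, *Bak1* rose, *Bcl2l11* fell and 32 did not pass, where 3.75% of all genes were called. *Bak1*, which opens the outer mitochondrial membrane and is a known miR-125b target, had 35.7, 35.7 and 36.2 CPM with miR-125b and 61.0, 70.9 and 62.0 CPM with Trim AGU (log2 fold change 0.81, SE 0.10, adjusted p = 0.0105 from edgeR). *Bcl2l11*, which encodes the BH3-only protein Bim, had 34.4, 36.8 and 36.8 CPM against 27.0, 22.9 and 21.4 CPM (-0.63, SE 0.13), and -0.40 (adjusted p = 0.101) with the length trend removed. *Pmaip1*, or Noxa, had a log2 fold change of 0.56, with an adjusted p of 0.0366 but below the fold limit. *Bmf*, another BH3-only gene, had 10.4, 3.52 and 9.33 CPM with Trim AGU against 12.2, 10.4 and 13.8 CPM (-0.67, SE 0.39).

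Other genes that the study followed showed no call in hypoxia with all libraries. Their log2 fold changes were -0.17 (SE 0.21) for *Traf6*, 0.06 (SE 0.24) for *Hif1an*, -1.06 (SE 0.40) for *Tnfrsf1b* at under 0.6 CPM, 0.27 (SE 0.10) for *Tp53inp2*, 0.16 (SE 0.16) for *Dram2*, 0.13 (SE 0.14) for *Casp2* and 0.27 (SE 0.12) for *Bax*. *Tp53inp1* and *Klf13* had wide errors, 0.18 (SE 0.49) and -0.47 (SE 0.67). Their Trim AGU replicate 2 was low, at 7.53 CPM for *Tp53inp1* (30.0 and 32.2 in the others) and 0.514 CPM for *Klf13* (4.12 and 4.46). Without that library *Tp53inp1* rose by a log2 fold change of 0.60 (SE 0.09, adjusted p = 0.00528 from edgeR). *Klf13* then had 0.02 and was not called. *Actb*, often used as a reference gene, had -0.47 (SE 0.12, adjusted p = 0.0824 from edgeR), with all 3 Trim AGU libraries below all 3 of miR-125b. *Bbc3* is not named in the tables used.

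Of 29 genes reported elsewhere as miR-125b targets, 2 rose and 1 fell, where 1.83% and 1.93% of all genes did. The median log2 fold change was -0.17. The genes that rose were *Bak1* and *Cdc25c*, a phosphatase of mitotic entry (0.77), and the vitamin D receptor gene *Vdr* fell from 13.3, 13.4 and 16.2 CPM to 6.41, 3.75 and 4.67 CPM (-1.56). The median was -0.0034 without Trim AGU replicate 2, with 3 genes higher and 2 lower, where 3.29% and 5.17% of all genes were. No gene of this list, of the apoptosis list or of the HIF targets below was called without any 1 library of miR-125b or without Trim AGU replicate 3.

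Interferon-stimulated genes had a median log2 fold change of -0.49 over 26 tested, and 1 fell: *Irf9*, the DNA-binding partner of the STAT factors, from 26.4, 23.2 and 24.7 CPM to 15.7, 15.1 and 13.01 CPM (-0.80). Without Trim AGU replicate 2, 10 fell, where 5.17% of all genes did, with a median of -0.35. Without any 1 library of miR-125b or Trim AGU replicate 3 none fell. *Rtp4* had -1.56 (adjusted p = 0.0778) and *Mx2* -2.69 (adjusted p = 0.0761, edgeR), at under 1.5 CPM. Of 31 HIF targets tested, the hypoxia-induced genes *Ndrg1* (-1.97, under 3.3 CPM) and *P4ha2* (-0.66, from 170, 177 and 182 CPM to 134, 103 and 108 CPM) fell and the median was -0.07. *Bnip3*, a mitophagy gene, had 0.52. Without Trim AGU replicate 2, *P4ha2* had -0.58, below the fold limit, and was not called. Of all genes tested with all libraries, 1.93% fell.

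Among 19 immediate early genes, *Ier3* and *Dusp1* rose and *Fosb* fell. *Ier3*, a stress-induced survival gene, had 36.7, 35.1 and 35.5 CPM with miR-125b and 75.5, 91.3 and 80.1 CPM with Trim AGU (1.16, SE 0.10), and *Dusp1*, a MAP kinase phosphatase, had 0.59. None of the list was called without any 1 library of miR-125b, and without Trim AGU replicate 3 it was 1 higher and 0 lower. Without Trim AGU replicate 2, 1 rose and 2 fell. In the edgeR test no gene was called of 22 cholesterol synthesis genes (4 at an unadjusted p below 0.05, 1 called by DESeq2) or of 18 genes of the microRNA machinery (3 and 0). The genes with the smallest p were *Dhcr7* (-0.82) and *Cyp51* (-0.44) for cholesterol, and *Dicer1* (-0.52), *Zcchc11* (-0.65) and *Parn* (0.33) for the machinery, all as log2 fold changes. Without Trim AGU replicate 2, *Dhcr7* fell (-0.76, adjusted p = 0.0268 from edgeR). Of all genes tested, 3.75% were called in either direction.

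**Figure D4:**
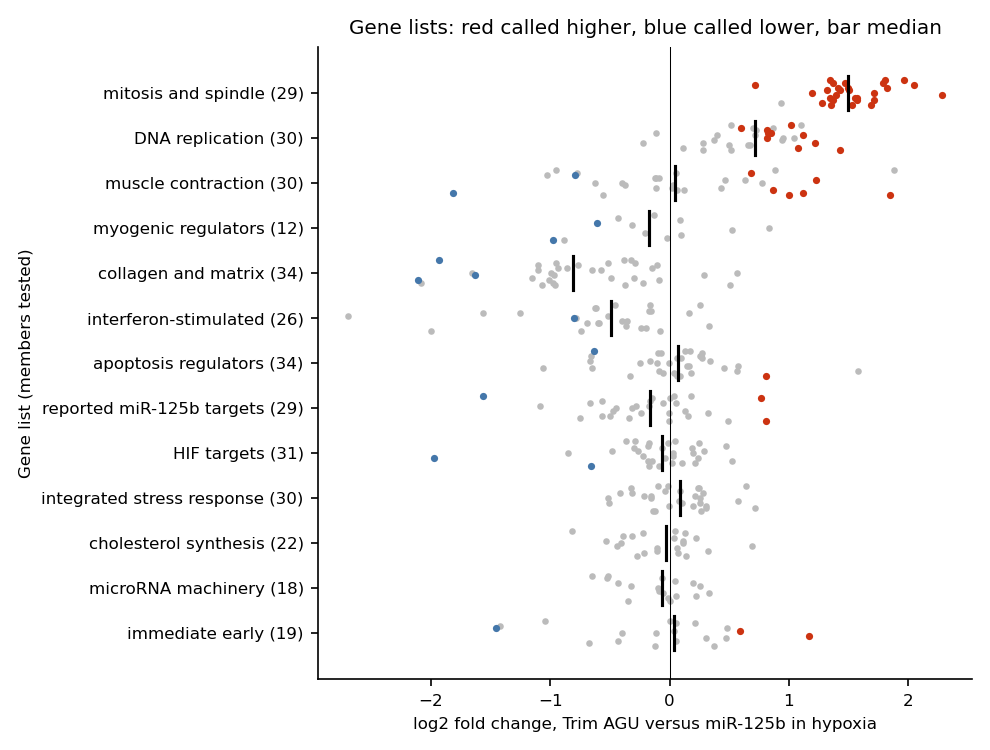
Log2 fold change of Trim AGU versus miR-125b in hypoxia (x axis) for each member tested of 13 gene lists (y axis, number tested in brackets), with members called higher in red, called lower in blue, not called in grey, and the median as a bar. Mitosis and spindle genes have a median of 1.49 and collagen and matrix genes one of -0.81.

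The same mimics were compared in normoxia, in libraries that the hypoxia comparison does not use. There 915 of 14720 genes (6.22%) were higher and 759 (5.16%) lower in Trim AGU, 11.4% in all. Of the genes tested in both conditions, 184 rose in both, which is 66.9% of those that rose in hypoxia and 20.6% of those that rose in normoxia. A further 130 fell in both, 46.1% and 17.2%. Only 1 gene, listed without a symbol, was called in opposite directions. Over all 14426 genes tested in both, called or not, the log2 fold changes correlated at 0.35 (Pearson) and 0.26 (Spearman).

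All 29 mitosis genes rose in normoxia too, with a median log2 fold change of 1.08. So did 27 of 30 DNA replication genes, with a median of 0.92, where 6.22% of all genes rose. *Usp15* had 47.5, 26.5 and 25.3 CPM with miR-125b and 101, 121 and 101 CPM with Trim AGU in normoxia (1.70, SE 0.22). Replicate 1 of miR-125b was the highest of its group, and without it all 29 mitosis genes and 23 of the DNA replication genes rose. *Plagl1* (-2.10), *Sirt2* (-1.17), *Ddah1* (-1.26), *Myo1d* (-1.02) and *Sec14l1* (-1.10) fell in normoxia as in hypoxia. Of the genes that the study followed, *Casp2* (0.71), *Klf13* (0.72) and *Tnnt2* (1.19) rose in normoxia, without a call in hypoxia. The others with values above, among them *Bak1* (0.53), were not called in normoxia.

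Whether the difference between the mimics itself changed with the oxygen condition was tested as an interaction in 1 fit of the 12 libraries. Of 15525 genes, 95 (0.612%) had a higher and 55 (0.354%) a lower log2 fold change in hypoxia than in normoxia, 150 (0.966%) in all. Without Normoxia miR-125b replicate 1 it was 32 genes and without Hypoxia Trim AGU replicate 2 it was 554. It was 2250 without Hypoxia Trim AGU replicate 1, 75 without replicate 3, 11 to 20 without any 1 hypoxia library of miR-125b and 23 to 76 without any other 1 normoxia library. No mitosis gene was called in this edgeR test (17 at an unadjusted p below 0.05, and DESeq2 called 5).

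The integrated stress response, through which cells short of amino acids or with unfolded proteins raise ATF4 and its targets, had more calls in the interaction than any other list. In hypoxia 0 of 30 genes were called by edgeR, with a median of 0.08 (8 at an unadjusted p below 0.05, 1 called by DESeq2). In normoxia 14 of 30 were lower in Trim AGU, where 5.16% of all genes were, with a median of -0.54. In the interaction 12 of 30 were called, all with a higher log2 fold change in hypoxia, as were 0.612% of all genes. *Trib3*, a pseudokinase induced by this response, had 469, 470 and 459 CPM with miR-125b and 526, 620 and 517 CPM with Trim AGU in hypoxia, but 159, 165 and 172 CPM and 52.99, 39.5 and 50.7 CPM in normoxia. The interaction was 2.05 on the log2 scale (adjusted p = 4.6e-04 from edgeR). *Ddit3*, or CHOP, and *Asns*, asparagine synthetase, had interactions of 2.05 and 1.35, and both were highest in Trim AGU replicate 2 in hypoxia (504 and 407 CPM). Without that library 15 of 30 genes were called in the interaction, and without Normoxia miR-125b replicate 1 it was 5.

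*Myod1* and *Myog* had interactions of -0.91 and -0.94 (adjusted p = 0.0230 and 0.0245, edgeR). *Myod1* had 128, 143 and 133 CPM with miR-125b and 143, 123.2 and 130 CPM with Trim AGU in normoxia, where the groups overlapped. *Lox* also did not differ there by call (-0.17), with an interaction of -1.43, and *Acta1* rose less there (0.63), with an interaction of 1.26. Without Normoxia miR-125b replicate 1, none of *Myod1*, *Myog*, *Lox* and *Acta1* was called in the interaction.

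**Figure D5:**
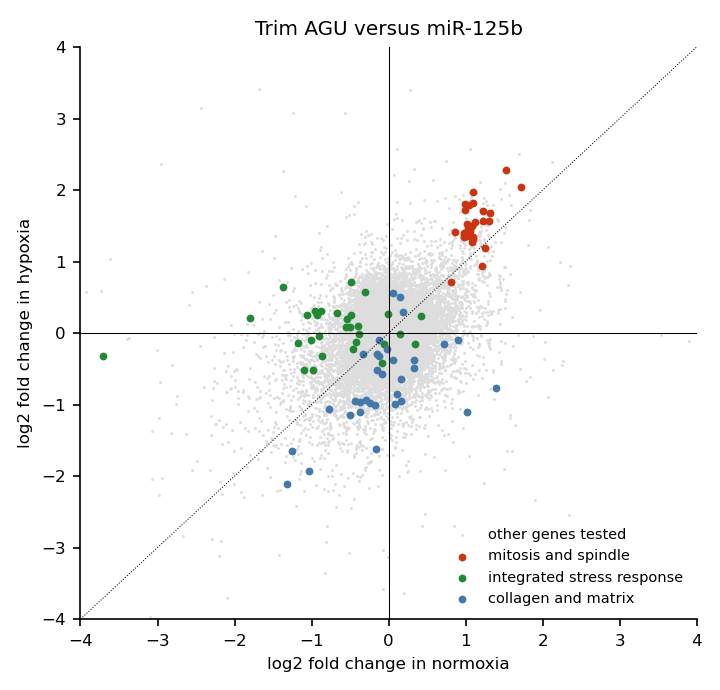
Log2 fold change of Trim AGU versus miR-125b in hypoxia (y axis) against that in normoxia (x axis) for each gene tested in both, with 3 gene lists in colour and the dotted line marking equal values (1 gene lies outside the axes). Mitosis genes lie at positive values on both axes, integrated stress response genes near 0 in hypoxia and mostly below 0 in normoxia, and matrix genes mostly below 0 in hypoxia.

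Trim AG has 1 more base at its 3′ end than Trim AGU, and was compared with it in the fit of the 18 hypoxia libraries at the same dose. This comparison shares the Trim AGU libraries with the one above and was added after the levels were seen. The mitochondrial share of counts in replicates 1 to 3 was 3.52%, 5.29% and 4.57% with Trim AG and 3.29%, 5.70% and 4.45% with Trim AGU. The fit did not pair replicates by number, and Trim AG replicate 2 was kept where Trim AGU replicate 2 was left out. Of 16007 genes, 782 (4.89%) were higher and 592 (3.7%) lower in Trim AGU, 8.58% in all. Without Trim AGU replicate 2 it was 658 and 493. No gene of the mitosis list was called by edgeR (8 of 29 at an unadjusted p below 0.05, and DESeq2 called 1 lower), and the median log2 difference was -0.08, or -0.14 without that replicate. *Ccnb1* had 76.8 ± 15.1 CPM (SD, n = 3) with Trim AG and 76.9 ± 5.92 CPM (SD, n = 3) with Trim AGU, and *Usp15* had 128 ± 18.2 and 107 ± 14.2 CPM (log2 difference -0.24). *Bak1* had 62.8 ± 4.15 and 64.6 ± 5.45 CPM.

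Other genes separated the 2 isomiRs. *Ddah1* had 119 ± 12.2 CPM with Trim AG and 24.1 ± 1.86 CPM with Trim AGU, on either side of the 68.0 ± 3.10 CPM with miR-125b (log2 difference from Trim AG -2.28, adjusted p = 6e-10 from edgeR). *Plagl1* had 21.0 ± 3.62 CPM with Trim AG and 2.59 ± 1.40 CPM with Trim AGU (-2.98), and *Myo1d* 183 ± 32.2 and 68.1 ± 4.99 CPM (-1.41). *Myog* was higher with Trim AGU, at 41.8 ± 4.92 CPM against 11.4 ± 0.581 CPM with Trim AG (1.89), and *Acta1* was lower, at 67.3 ± 12.997 CPM against 163 ± 18.8 CPM (-1.25). *Tnnt2* had 43.5 ± 17.3 CPM with Trim AGU and 15.99 ± 1.03 CPM with Trim AG (1.47), and Trim AGU replicate 2 was its highest library. Without that library the difference was 1.09 for *Tnnt2*, -2.65 for *Plagl1* and -2.29 for *Ddah1*, all still called. Of the muscle contraction list, 12 of 33 tested were higher and 1 lower in Trim AGU than in Trim AG. Of all genes tested, 4.89% were higher and 3.7% lower. Without Trim AGU replicate 2, it was 11 and 2 of the list.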

How the data were processed

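RNA of H9C2 cells was compared between 3 Trim AGU and 3 miR-125b libraries in hypoxia. The counts per gene were deposited by the authors in 12 tables, each comparing a pair of groups, of which 5 were used, holding 24 libraries. Per the labels, the submitters' processing notes name HISAT2 and StringTie. Versions and the genome build are not given in the sources used here. The gene length was deposited in the same tables as a whole number of bases. The authors' FPKM values, fold changes and p-values from their own DESeq2 test were not used. Genes missing from a table were given a count of 0, and 23683 genes were listed. Libraries were not stranded, so overlapping and antisense genes cannot be told apart, and counts of near-identical copies are uncertain.

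Counts were tested with edgeR 4.0.16 in R 4.3.3 (TMM normalization, filterByExpr, quasi-likelihood test) and, as an alternative, DESeq2 1.42.0. CPM used TMM scaling over the 24 libraries, and log2 CPM a prior count of 2. The length trend was removed with lowess (span 0.3). Each SE was obtained by dividing the log2 fold change by the root of its F value. Counts carry counting error as well as the spread between libraries. Replicates differed by more than sampling noise (chi-square per gene 4.97 to 236), so each library counted as 1. For the hypoxia comparison edgeR was tested on simulated data (15051 genes, 200 changed) and recovered 29.8% of genes changed 2-fold and 79.1% of those changed 4-fold, and 8.04% of calls were false. The simulation gave both groups the same spread per gene and had no length trend. The real chi-square per gene was 48.1 to 236 among Trim AGU libraries and 4.97 to 5.64 among those of miR-125b. These rates may therefore not hold for the real comparison.

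Samples were grouped by the labels. Alternatives were DESeq2, RLE normalization, no filter on low counts, leaving out each library, the replicate number as a block, more libraries in 1 fit, fold limits of 2 and none, and, added after the data were seen, the length trend and the contrast with Trim AG. The libraries, the 16 gene lists and the 6 marker lists were chosen with earlier results of these data known. Where a symbol had more than 1 identifier, the one with the highest total count was used. Genes named are, per direction, the 12 coding genes with the largest change among those called (mean of at least 1 CPM, no overlap between groups), up to 15 called in every fit that left out 1 library, genes the study followed, and for each list those with the smallest p. A gene outside this rule is marked in the text. Promoter and microRNA sequences are from RefSeq GRCr8. Seed sites in messengers were not analysed here. Results of 1 gene list and of some genes are not reported here. Tables and figures used Python 3.11.15, pandas 2.3.3, numpy 2.4.6 and matplotlib 3.10.9.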

Additional observations from a re-analysis of the deposited data

Results flagged for a closer look

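Each gene below was noted because the difference between Trim AGU and miR-125b itself differed between hypoxia and normoxia in the interaction test (edgeR, adjusted p below 0.05), and values are the log2 fold change in hypoxia minus that in normoxia. Oxygen and medium cannot be told apart in this difference. Without Normoxia miR-125b replicate 1 only 32 genes were called in this test. *Acta1*, *Myod1*, *Myog*, *Lox*, *Dusp1* and *Mx2* were not among them. Of 30 integrated stress response genes tested, 5 were called without that library, against 12 with all libraries, so some listed below also lost their call. Genes of the integrated stress response had *Trib3* 2.05, *Ddit3* 2.05, *Asns* 1.35, *Chac1* 1.30, *Atf5* 1.22, *Sesn2* 1.07, *Mthfd2* 0.93, *Slc6a9* 1.28 and *Nars* 0.91. Stress and metabolic genes had *Hmox1* 1.48, *Gadd45a* 1.36, *Sqstm1* 1.07, *Sfxn1* 1.03, *Ghitm* 1.08, *Angptl4* 2.33, *Adh7* 2.21 and *Dhcr7* -1.01. Muscle and matrix genes had *Acta1* 1.26, *Myod1* -0.91, *Myog* -0.94 and *Lox* -1.43. The others were *Bambi* 1.43, *Dusp1* 0.63, *Cstf3* 0.82, *Plekha6* -1.42, *Mx2* -3.51 and AABR07015057.1 2.15.

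*Hmox1*, heme oxygenase, had 840, 834 and 808 CPM with miR-125b and 947, 1157 and 1004 CPM with Trim AGU in hypoxia, against 207, 208 and 200 CPM and 100, 79.9 and 97.2 CPM in normoxia. *Adh7*, an alcohol dehydrogenase, rose in hypoxia from 11.5, 10.9 and 9.92 CPM to 33.3, 36.3 and 34.5 CPM, while in normoxia every library was below 3 CPM.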

How the results depend on the processing

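In hypoxia, 275 genes were higher and 290 lower as reported. DESeq2 gave 606 and 665, the 18 hypoxia libraries in 1 fit 960 and 1043, the replicate number as a block 38 and 16, and a fold change of at least 2 149 and 161. With 1 library left out the counts ranged from 17 to 788 higher and 10 to 795 lower. In normoxia, 915 and 759 became 293 and 344 with a fold change of at least 2 and 1965 and 1715 with no fold threshold. The interaction had 150 genes, 765 with DESeq2, 15 with the replicate block, 94 with a fold change of at least 2, 252 with the length trend removed and 11 to 2250 with 1 library left out. The cause was not tested.

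Same-numbered libraries of Trim AGU and miR-125b showed no clear sign of pairing, and 3 libraries per group make this a weak check. Deviations of same-numbered libraries from their group means correlated at -0.15 to 0.04 in hypoxia and 0.01 to 0.07 in normoxia, no source gives a shared batch, and not every library correlated best with its own number. In the trimmed isomiRs in hypoxia, the mitochondrial share of counts followed the replicate number. It was 3.41%, 5.01% and 4.47% in replicates 1 to 3 of Trim A, which lacks the last A. Trim AG had 3.52%, 5.29% and 4.57%, and Trim AGU 3.29%, 5.70% and 4.45%. With miR-125b it was 3.46% to 3.58%. Pairing among the trimmed isomiRs was not tested.

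Genes near 0 changed sign, and none of them was called with all libraries. *Usp4* was 0.0232 with DESeq2, 0.0234 with RLE normalization, 0.0189 in the fit of 18 libraries and 0.19 with the length trend removed. With the trend removed *Hif1an* was -0.0376, *Tnnt2* -0.12, *Usp11* 0.0968 and *Sesn2* 0.0064, and with the block *Tp53inp1* was -0.046 and *Tnnt2* -0.0135. With 1 library left out, values ranged from -0.15 to 0.28 for *Hif1an*, -0.12 to 0.60 for *Tp53inp1*, -0.85 to 0.0202 for *Klf13*, -0.31 to 0.22 for *Tnnt2*, -0.0512 to 0.0485 for *Usp4* and -0.040 to 0.0802 for *Sfxn1*.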
